A study of Mus musculus with 13 samples.

Results

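Solute carriers (gene symbols of the form Slc, family number, a, member number) were described in 3 populations of sorted mouse splenic CD4 T cells. A total of 238 symbols in the deposited table had this form. Slc2a1, Slc2a3 and Slc29a1 were left out, and of the other 235 genes, the 183 whose scaled count (reads of a gene after scaling for library depth) averaged 10 or more across 9 values were kept as members, while 52 lay below that level. The members were chosen by symbol and by their mean level over all 3 populations, so the level itself is a description and not a finding. The minimum fell between Slc45a3 at 10.01 and Slc7a11 at 10.12 inside it and Slc29a4 at 9.58 and Slc25a2 at 9.17 outside it. Of the 183 symbols, 4 are named after a carrier but encode no carrier (Slc2a4rg-ps, Slc4a1ap, Slc7a6os and Slc9a3r1), and Slc38a9 stands for 2 gene IDs.

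All cells came from mice with a GFP reporter of Foxp3, the lineage factor of regulatory T cells. PD1hi cells were CD4+, high for the inhibitory receptor PD-1 on the surface and without the reporter (3 libraries). Regulatory T cells (Treg) were CD4+, positive for the reporter and negative for PD-1 (5 libraries), and conventional T cells (Tconv) were CD4+ and negative for both (5 libraries). For the mice, strain, age, sex, treatment and pooling were not given in the sources used here. Sample titles carry an experiment number (3, 5 or 6), with every population in each experiment, and 4 libraries are titled as a replicate of another. Nothing says whether such libraries came from other animals, so a p-value covers the spread among these libraries only, and that spread may be technical. Libraries that shared experiment and population were therefore averaged to 1 value, and values are listed in the order of experiments 3, 5 and 6.

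Solute carriers move nutrients, ions, metals and vitamins across the plasma membrane and the membranes of organelles. Most use a gradient of sodium, protons or another substrate, and a family shares sequence but often not substrate or location. In T cells, amino acid, glucose and lactate carriers are known to be induced by activation, and the mitochondrial Slc25 family links the cytosol with the respiratory chain.

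Libraries held 15971126 to 24216463 reads in genes. The surface and reporter genes used for sorting followed the labels, with Pdcd1, which encodes PD-1, highest in PD1hi (37372 ± 3290, SD, n = 3) and Foxp3 highest in Treg (15889 ± 513, SD, n = 3). The second Treg library of experiment 3 stood apart from the first: 14 of 156 members with a mean of at least 50 differed over 2-fold between them, against 1, 5 and 6 in the other pairs of libraries. On the third principal component of all genes tested, that library (-50.67) and the PD1hi library of experiment 6 (-53.35) lay apart from the other 11, which ran from -12.24 to 35.41. Markers of other cell types were present at unequal levels, and their part in the results was not tested. The summed level of 8 B cell markers was 1669 to 2301 in PD1hi, 888 to 1151 in Treg and 219 to 408 in Tconv, with Cd22 making up most of it in PD1hi (1675 ± 243) and Cd79b most of it in Treg (629 ± 83.8, beside 129.7 ± 39.4 in PD1hi and 57.8 ± 3.12 in Tconv, SD, n = 3). Cd79b differed in all 3 comparisons (limma adjusted p = 0.00804, 6.87e-05 and 5.11e-06), while Pax5 had means under 15 in each population. The 4 plasma cell markers summed to 3904 to 7326 in PD1hi, 6649 to 9580 in Treg and 2581 to 3246 in Tconv. Igj was at means of 3866 ± 1352, 4316 ± 1350 and 1586 ± 406 and Prdm1 at 557 ± 261, 2494 ± 363 and 582 ± 23.2 in PD1hi, Treg and Tconv (SD, n = 3). Sdc1 passed no test. The 4 CD8 and NK markers summed to 255 to 518, 326 to 521 and 1406 to 1518 in this order. Most of that sum in Tconv was Klrb1c (984 ± 59.0) and Cd8b1 (424 ± 37.7, SD, n = 3). Cd8a had means of 6.78, 5.55 and 8.43, and Ncr1 passed no test.

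Of the 183 members, 63 (34.4%) differed between PD1hi and Tconv by limma with Benjamini-Hochberg adjusted p under 0.05 over all 14177 genes tested, beside 26.1% of all genes. Of these, 41 were higher in PD1hi (all genes: 14.2%) and 22 lower (all genes: 11.9%). Between PD1hi and Treg, 46 members (25.1%) differed, beside 16.5% of all genes, with 23 higher in PD1hi (all genes: 8.16%) and 23 lower (all genes: 8.39%). Between Treg and Tconv, 43 members (23.5%) differed, beside 14.4% of all genes, with 27 higher in Treg (all genes: 8.73%) and 16 lower (all genes: 5.66%). The median log2 fold change of the members lay at 0.04, -0.03 and 0.09 in these comparisons, beside -0.0004, -0.009 and 0.006 for all genes tested. The median size of the change, whatever its sign, was 0.46, 0.40 and 0.38 in the members and 0.41, 0.32 and 0.295 over all genes. The 3 comparisons share their samples, so their counts are not independent of each other. With single values left out, the 23 members lower in PD1hi than in Treg became 14 to 26 (14 without Treg of experiment 5 or 6), and the 16 lower in Treg than in Tconv became 9 to 21 (9 without Tconv of experiment 5, and 10 without Tconv of experiment 3 or 6 or Treg of experiment 5 or 6). In Treg against Tconv, where values of the same experiment deviated together, a fit with experiment as a replicate block also called 6 more members. Higher in Treg were Slc6a20b (0.015), Slc12a2 (0.0137), Slc16a6 (0.0324) and Slc36a4 (0.0439), and lower were Slc39a11 (0.0177) and Slc30a4 (0.0424), with the limma adjusted p in brackets. With libraries scaled to equal totals of reads, the median log2 fold change of all genes in PD1hi against Tconv was 0.142, and the share of called genes that were higher in PD1hi was 65.4% in place of 54.4% (members: 73.0% in place of 65.1%). In bulk samples, fewer cells of a type and less RNA per cell cannot be told apart.

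**Figure D1:**
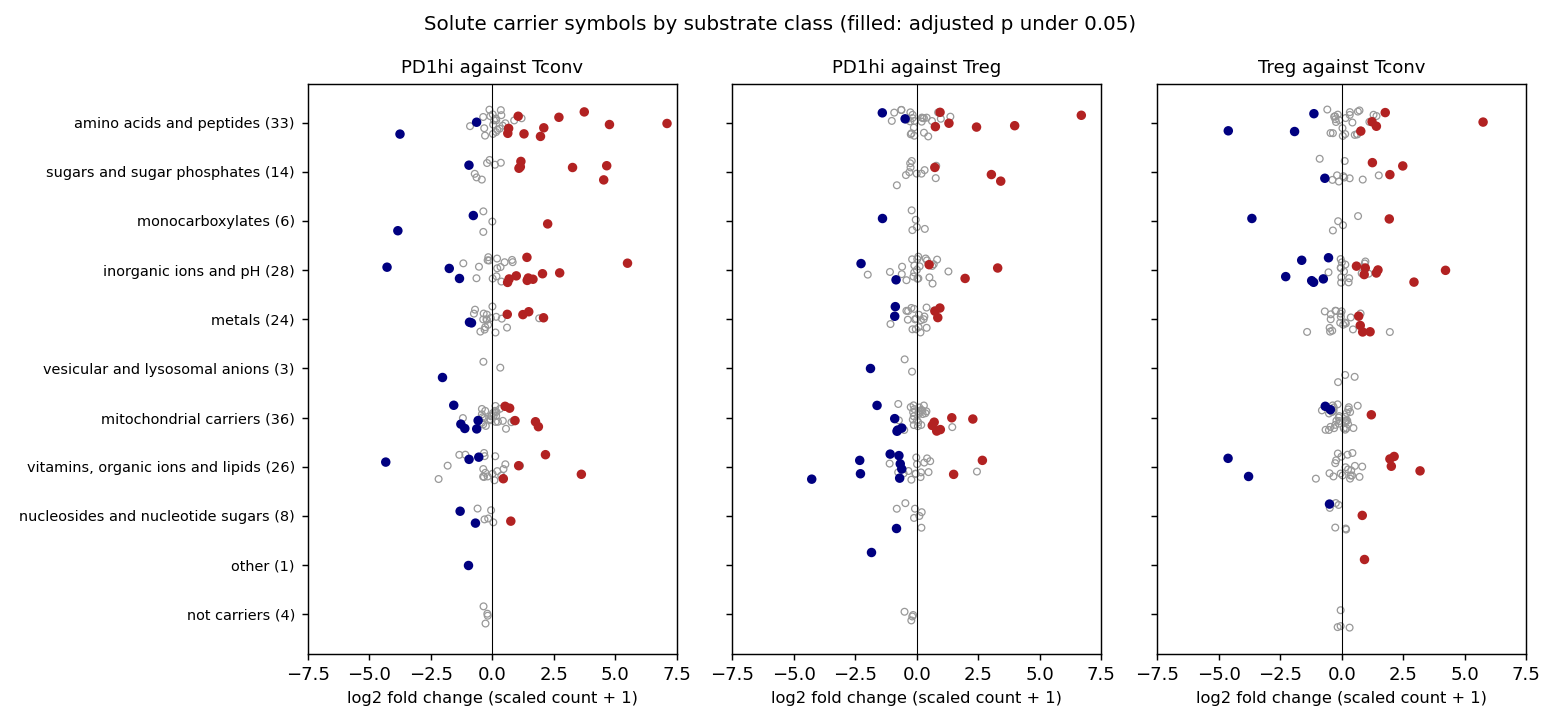
Log2 fold change (x axis, log2 of scaled count + 1) of every member by substrate class (y axis, number of members in brackets) in the 3 comparisons. Filled points passed adjusted p under 0.05, red for higher and blue for lower in the population named first, and open points did not. The amino acid class holds 10 filled points above 0 and 2 below in PD1hi against Tconv.

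Most members were found in all 3 populations: 169 had a mean of at least 10 in each of them, 8 in 2 of them and 6 in 1. Those 6 were Slc6a9 in PD1hi, Slc22a2 in Treg, and Slc15a1, Slc22a4, Slc26a8 and Slc46a2 in Tconv. This split is partly set by the minimum, which was placed on the mean over all populations. A gene read in 1 population only had to stand well above 10 there to be kept. Slc1a1, at means of 0, 14.9 and 0.197 in PD1hi, Treg and Tconv, was not kept. The mean was highest in PD1hi for 68 members, in Treg for 59 and in Tconv for 56. These counts include members without a call, and the same count over all genes was not made, so no tilt of the carriers can be read from them. A log2 change of at least 1 in the same direction against both other populations, called in both, was seen for 12 members with PD1hi on top (6.56%, beside 4.15% of all genes) and for 1, Slc17a9, with PD1hi at the bottom (all genes: 2.79%). The count of 12 was 11 to 13 over the alternatives tried, and that of 1 was 2 without PD1hi of any experiment or Tconv of experiment 5 or 6.

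**Figure D2:**
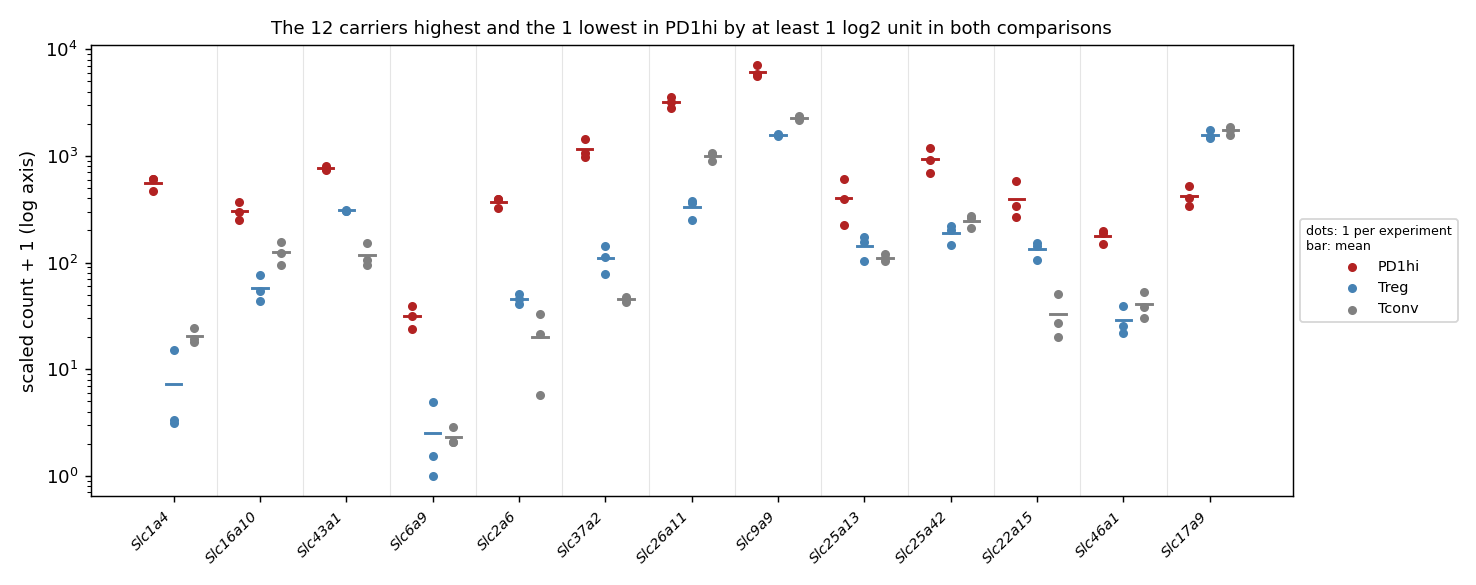
Scaled count + 1 (y axis, log scale) of the 13 members with PD1hi at the top or bottom by at least 1 log2 unit against both other populations. Each dot is 1 experiment, bars are means, and colours mark the population. The 3 PD1hi dots lie above all Treg and Tconv dots for the 12 genes on the left, and below them for Slc17a9.

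The families known for amino acid and peptide transport made up 33 of the members. This class was set by family number and also holds Slc43a3, a carrier of purine nucleobases, and Slc6a8, the creatine carrier, which are in the counts given next. In PD1hi against Tconv, 10 were higher and 2 lower. In PD1hi against Treg, 6 were higher and 2 lower, and in Treg against Tconv, 5 were higher and 3 lower. Beside this and every later class count, the shares of all genes called were 26.1%, 16.5% and 14.4% in the same order of comparisons. The class median log2 fold change was 0.31, 0.20 and 0.33 in these comparisons. The largest difference in the class against Treg was that of Slc1a4 (ENSMUSG00000020142), which carries alanine, serine, cysteine and threonine. Slc1a4 was at 465, 607 and 612 in PD1hi, 2.34, 14.1 and 2.16 in Treg and 17.1, 23.6 and 18.2 in Tconv. Every PD1hi value lay far above every other, and the Treg values lay below those of Tconv. The log2 fold change was 4.77 ± 0.54 against Tconv (SE; limma adjusted p = 4.48e-05) and 6.69 ± 0.54 against Treg (limma adjusted p = 4.69e-06). Within each of the 4 pairs of libraries, both Treg and both Tconv, Slc1a4 differed over 2-fold.

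Another 3 carriers of this class stood at least 1 log2 unit higher in PD1hi than in both other populations. Slc16a10, a carrier of aromatic amino acids, was at 294, 249.6 and 367 in PD1hi, 74.7, 42.3 and 52.6 in Treg and 94.8, 121 and 156 in Tconv. Slc43a1, which carries branched-chain and other large neutral amino acids, was at 751, 739 and 797 in PD1hi, 307, 310.3 and 306 in Treg and 106, 153 and 94.3 in Tconv. The order was PD1hi, Tconv, Treg for Slc16a10 and PD1hi, Treg, Tconv for Slc43a1, with no overlap between populations in either. The log2 fold change against Treg and Tconv was 2.43 ± 0.29 and 1.30 ± 0.29 for Slc16a10, and 1.31 ± 0.20 and 2.72 ± 0.20 for Slc43a1 (SE; limma adjusted p at most 0.00583). Slc6a9, the glycine carrier GlyT1, was at 30.7, 38.4 and 22.8 in PD1hi, 3.96, 0 and 0.539 in Treg and 1.07, 1.07 and 1.87 in Tconv, so it was near the level of single reads outside PD1hi (log2 3.75 ± 0.75 against Tconv and 3.98 ± 0.75 against Treg, SE; limma adjusted p = 0.00283 and 0.00284). In GENCODE M21, 30.25% of the exon bases of Slc6a9 are shared with genes on the other strand. The strand setting of the counting is not given, so reads of such pairs cannot be told apart; one of these genes, Ccdc24, was at 22.8 ± 12.2, 0.643 ± 0.568 and 4.15 ± 4.80 (SD, n = 3) in PD1hi, Treg and Tconv.

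Slc7a10, a carrier of small neutral amino acids that works with the heavy chain Slc3a2, had nearly no reads in Tconv. It was at 98.4, 179 and 305 in PD1hi, 86.7, 75.2 and 47.2 in Treg and 1.07, 0 and 0 in Tconv, where all 5 libraries together held 1 read. Scaled for depth, reads were 941-fold higher in PD1hi (95% exact counting interval 168 to 37230) and 343-fold higher in Treg (61.2 to 13580) than in Tconv, and these intervals cover counting error only. PD1hi values lay above all Treg values, but the difference between PD1hi and Treg did not pass the test (log2 1.36 ± 0.52, SE; limma adjusted p = 0.103). Lrp3, which shares exon bases with Slc7a10 on the opposite strand (17.9% of those of Slc7a10), had the same order, at 41.9 ± 14.7, 16.6 ± 1.32 and 0.592 ± 1.03 (SD, n = 3) in PD1hi, Treg and Tconv.

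**Figure D3:**
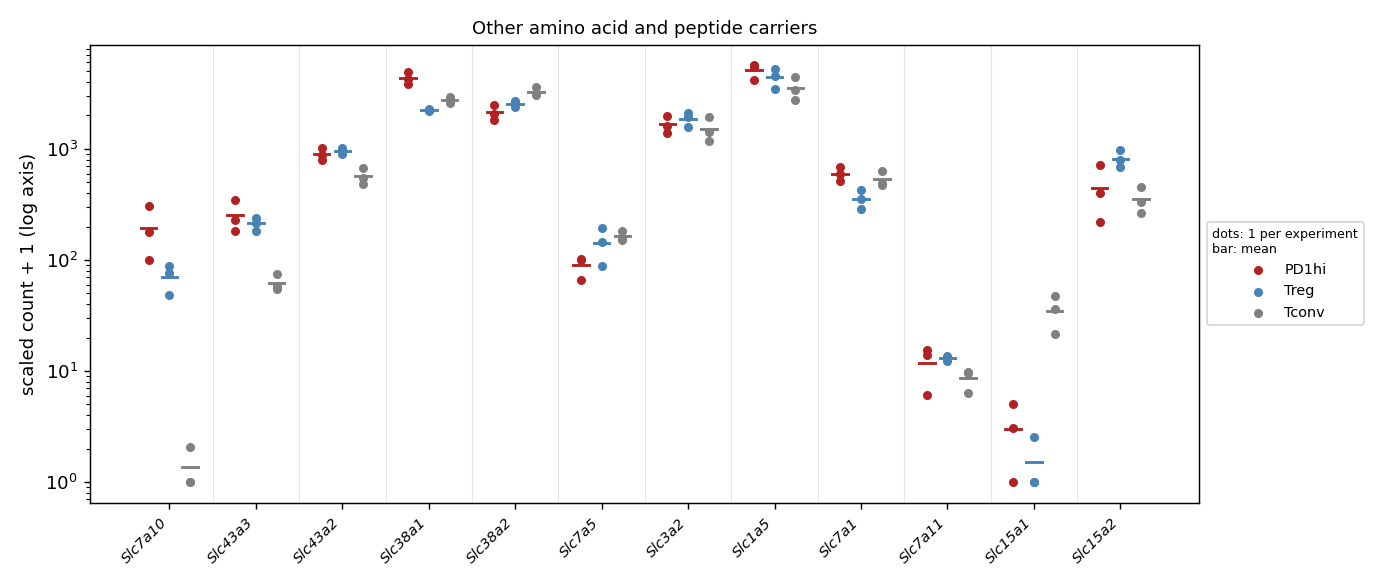
Scaled count + 1 (y axis, log scale) of 12 further carriers of amino acids and peptides. Each dot is 1 experiment, bars are means, and colours mark the population. Slc7a10 and Slc15a1 separate Tconv from the other populations in opposite directions, while the dots of all populations overlap for Slc3a2 and Slc1a5.

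The glutamine carriers of the Slc38 family moved apart. Slc38a1 was at 4218, 3870 and 4912 in PD1hi, 2191, 2257 and 2280 in Treg and 2795, 2594 and 2926 in Tconv, and was higher in PD1hi than in both (log2 0.94 ± 0.13 against Treg and 0.64 ± 0.13 against Tconv, SE; limma adjusted p = 0.000238 and 0.00258). Slc38a2 was at 2505, 2058 and 1830 in PD1hi, 2690, 2596 and 2384 in Treg and 3587, 3034 and 3204 in Tconv, and was lower in PD1hi than in Tconv (log2 -0.63 ± 0.14, SE; limma adjusted p = 0.00614). The PD1hi ranges did not overlap those they were tested against in these calls. The carriers Slc7a5, Slc3a2, Slc1a5 and Slc7a11, well described in activated T cells, did not pass the test in any comparison fitted without a replicate block. Slc7a5, the light chain of the leucine carrier LAT1, was at 99.4, 100.0 and 65.2 in PD1hi, 194, 145 and 86.5 in Treg and 158, 149 and 180.2 in Tconv, with PD1hi below Tconv and Treg overlapping both (log2 -0.90 ± 0.32 against Tconv, SE; limma adjusted p = 0.0565). Its partner Slc3a2 had means of 1662 ± 285, 1870 ± 279 and 1507 ± 380.3 in PD1hi, Treg and Tconv (SD, n = 3). For Slc1a5, the glutamine carrier ASCT2, the means were 5085 ± 808, 4431 ± 891 and 3533 ± 863 in the same order, and for Slc7a11, the cystine carrier, 10.8 ± 5.03, 11.98 ± 0.631 and 7.57 ± 1.94. Slc7a1, the main carrier of arginine and lysine, was higher in PD1hi than in Treg (log2 0.75 ± 0.20, SE; limma adjusted p = 0.0231).

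Treg and PD1hi shared 3 calls above Tconv within the Slc43 family. Slc43a3 was at 345, 227 and 179 in PD1hi, 216, 237 and 183 in Treg and 73.5, 53.7 and 57.4 in Tconv, with PD1hi and Treg overlapping and Tconv below both. Slc43a2, a carrier of large neutral amino acids, had means of 896 ± 111, 959.8 ± 56.3 and 564 ± 96.7 (SD, n = 3) in PD1hi, Treg and Tconv. The peptide carriers Slc15a1 and Slc15a2 had their highest values in different populations. Slc15a1 was at 35.2, 20.7 and 46.01 in Tconv, 2.05, 4.04 and 0 in PD1hi and 0, 0 and 1.55 in Treg, where 5 libraries held 3 reads, so that Tconv was 61.7-fold above Treg (95% exact counting interval 20.8 to 302). Slc15a2 was at 801, 679.9 and 969 in Treg, 401, 219 and 719.7 in PD1hi and 266, 332 and 455 in Tconv, with only the PD1hi value of experiment 6 inside the Treg range. Slc6a8 was low but higher in PD1hi (46.6 ± 19.4) than in Tconv (9.85 ± 3.35, SD, n = 3; log2 2.10 ± 0.49, SE; limma adjusted p = 0.00666), and the lysosomal Slc36a4 likewise (log2 1.06 ± 0.25, adjusted p = 0.00833). With a value left out, this class lost the call of Slc43a2 (0.0559, Tconv 6) in PD1hi against Tconv, of Slc6a20b (0.137, Treg 6), Slc6a6 (0.111, Treg 5) and Slc7a1 (0.0935, Treg 5) in PD1hi against Treg, and of Slc15a2 (0.15, Tconv 3), Slc16a10 (0.109, Tconv 6) and Slc1a4 (0.12, Treg 6) in Treg against Tconv, with the highest limma adjusted p and the value left out (population and experiment) in brackets.

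Promoter stretches are shown for 3 members that hold, before or across the start site, the amino acid response element core, TGATGNAA, a sequence bound by ATF4 on amino acid shortage in well-studied genes. They come from RefSeq (GRCm38.p6), which listed promoters for 137 of the 183 member symbols; capitals mark the core, read on either strand.
Slc1a4 (chr11:20332706-20332833, minus strand): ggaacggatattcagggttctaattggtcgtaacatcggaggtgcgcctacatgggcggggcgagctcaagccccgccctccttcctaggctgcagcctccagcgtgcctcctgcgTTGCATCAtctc
Slc9a9 (chr9:94669772-94669891, plus strand): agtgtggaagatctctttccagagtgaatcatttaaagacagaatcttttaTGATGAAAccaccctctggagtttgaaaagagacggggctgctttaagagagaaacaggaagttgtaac
Slc7a11 (chr3:50443614-50443733, minus strand): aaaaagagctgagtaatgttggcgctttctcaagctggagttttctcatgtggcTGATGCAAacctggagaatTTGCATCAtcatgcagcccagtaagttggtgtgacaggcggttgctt
The core starts at base -4 from the start site in Slc1a4, on the reverse strand (TTGCATCA), at -69 in Slc9a9, and at -66 and -47 in Slc7a11, once on each strand. Slc1a4 and Slc9a9 were highest in PD1hi, while Slc7a11 passed no test. The 3 were not picked by a rule, and other member promoters with the core are not shown. No link between the core and a population can therefore be read from them. The core was found in 7 of 176 member promoters (3.98%, several genes having more than 1) and in 3.97% of all 32851 promoters of 300 bases, about the same share. Such a match is a run of letters and not a measured binding site. Atf4 itself was at 2260 ± 256, 2183 ± 401 and 2910 ± 396 (SD, n = 3) in PD1hi, Treg and Tconv and did not pass the test, except that Treg was lower than Tconv with experiment as a replicate block (limma adjusted p = 0.0301).

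Carriers of sugars and sugar phosphates (14 members, without the 2 glucose carriers left out above) were 6 higher and 1 lower in PD1hi than in Tconv, 3 higher and 0 lower in PD1hi than in Treg, and 3 higher and 1 lower in Treg than in Tconv. Slc2a6, a glucose transporter family protein of lysosomes, and Slc37a2, a sugar phosphate exchanger of the endoplasmic reticulum, had the largest rises in PD1hi. Slc2a6 was at 398, 324 and 390.3 in PD1hi, 49.6, 44.2 and 39.7 in Treg and 31.97, 20.2 and 4.77 in Tconv. Slc37a2 was at 978, 1075 and 1427 in PD1hi, 77.6, 141 and 111 in Treg and 46.9, 44.8 and 41.4 in Tconv. Both had the order PD1hi, Treg, Tconv without overlap, though Treg against Tconv did not pass for Slc2a6 (limma adjusted p = 0.0789). The log2 fold change of Slc2a6 was 4.54 ± 0.52 against Tconv and 3.03 ± 0.52 against Treg, and that of Slc37a2 was 4.66 ± 0.26 and 3.41 ± 0.26 (SE; limma adjusted p at most 0.00142). For Slc37a2, the Treg libraries of experiment 3 and the Tconv libraries of experiment 6 were over 2-fold apart within the pair.

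Within the same family Slc37a1 ran the other way, at 523, 594 and 495 in PD1hi, 569, 750.5 and 613 in Treg and 1054, 1093 and 942 in Tconv, with all Tconv values on top (log2 -0.94 ± 0.16 for PD1hi against Tconv, SE; limma adjusted p = 0.000944). Slc37a4, the glucose-6-phosphate carrier needed for glucose release, was higher in PD1hi (519 ± 26.4) than in Treg (312 ± 18.99, SD, n = 3; log2 0.73 ± 0.16, SE; limma adjusted p = 0.00867). Slc45a3 and Slc45a4 were higher in PD1hi and in Treg than in Tconv; Slc45a4 was at 417, 565 and 347 in Treg, 195, 209 and 369.6 in PD1hi and 131, 144 and 71.9 in Tconv, with 1 PD1hi value inside the Treg range. Slc5a3, the myo-inositol carrier, was at 1769, 1377 and 715 in PD1hi, 687, 1013 and 1300 in Treg and 454, 442 and 756 in Tconv, and its PD1hi value of experiment 6 lay inside the Tconv range. The member with the highest mean of the class without correction for gene length, Slc50a1, passed no test (2702 ± 104, 3262 ± 135 and 3116 ± 227, SD, n = 3). In this class, leaving out a value ended the call of Slc2a8 (0.203, Tconv 6), Slc45a4 (0.0966, Tconv 6) and Slc5a3 (0.0854, Tconv 3) in PD1hi against Tconv and of Slc37a1 (0.0556, Tconv 3) and Slc45a3 (0.113, Treg 5) in Treg against Tconv (highest limma adjusted p and value left out).

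Among 6 monocarboxylate carriers, the lactate exporter Slc16a3 (MCT4) was low in Tconv, at 39.4, 53.8 and 17.7, and was at 134, 193 and 173 in PD1hi and 108, 194 and 109 in Treg. Its log2 fold change was 2.26 ± 0.40 for PD1hi and 1.94 ± 0.40 for Treg against Tconv (SE; limma adjusted p = 0.00124 and 0.00594), with no overlap with Tconv. Slc16a1 (MCT1), which moves lactate in either direction, had overlapping values in all populations and passed no test (273 ± 83.8, 270.1 ± 69.4 and 341 ± 47.2 in PD1hi, Treg and Tconv, SD, n = 3). Slc16a5 stood out in Tconv, at 1244, 1246 and 1846, beside 118, 83.9 and 97.8 in PD1hi and 87.2, 118 and 138 in Treg. The lowest Tconv value of Slc16a5 lay well above the highest of the others (log2 -3.83 ± 0.25 for PD1hi and -3.65 ± 0.25 for Treg, SE; limma adjusted p = 7.04e-07 and 2.16e-06). Slc16a6 was at 247, 268 and 409 in PD1hi, 706, 897 and 839 in Treg and 425, 580.4 and 536 in Tconv, lowest in PD1hi without overlap (log2 -1.43 ± 0.22 against Treg and -0.76 ± 0.22 against Tconv, SE; limma adjusted p = 0.000597 and 0.0216). Of its exon bases 23.5% are shared with other genes, and its call against Tconv ended without 1 value (0.0794 without Tconv of experiment 5) and with equal totals (0.0791).

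Carriers of inorganic ions and protons numbered 28, of which 10 were higher and 3 lower in PD1hi than in Tconv, 3 higher and 2 lower in PD1hi than in Treg, and 7 higher and 6 lower in Treg than in Tconv. Of the carriers highest in PD1hi, Slc26a11 is an anion exchanger that carries sulfate and Slc9a9 a sodium-proton exchanger of endosomes. Slc26a11 was at 3177, 2819 and 3569 in PD1hi, 248, 363 and 379 in Treg and 895, 1069 and 1050 in Tconv. Slc9a9 was at 7107, 5851 and 5604 in PD1hi, 1546, 1584 and 1608 in Treg and 2165, 2344 and 2352 in Tconv. Both had the order PD1hi, Tconv, Treg with no overlap. The log2 fold change of Slc26a11 was 3.29 ± 0.18 against Treg and 1.66 ± 0.18 against Tconv, and that of Slc9a9 1.96 ± 0.13 and 1.43 ± 0.13 (SE; limma adjusted p at most 3.51e-05). Slc26a2, the sulfate carrier of cartilage and other tissues, was also highest in PD1hi but next highest in Treg, at 2549, 2357 and 2442 in PD1hi, 1742, 1760 and 1690 in Treg and 1073, 816 and 877 in Tconv.

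Another set of ion carriers was higher in both PD1hi and Treg than in Tconv. Slc24a3, an exchanger of sodium for calcium and potassium, was at 141, 118 and 333 in PD1hi, 76.1, 80.9 and 61.3 in Treg and 6.39, 7.16 and 0 in Tconv. Slc12a8, of the cation-chloride family, was at 182, 193 and 213 in PD1hi, 182, 259.6 and 237 in Treg and 37.3, 60.5 and 9.64 in Tconv. For both, every Tconv value lay below every other value (log2 5.51 ± 0.71 and 2.75 ± 0.50 for PD1hi, 4.22 ± 0.71 and 2.94 ± 0.50 for Treg, SE; limma adjusted p at most 0.00176). The sodium bicarbonate carriers Slc4a7 and Slc4a8 had their highest values in different populations. Slc4a7 was at 2193, 2696 and 2401 in Treg, 1256, 1394 and 1395 in PD1hi and 939.9, 833 and 838 in Tconv, while Slc4a8 was at 311, 481 and 416 in PD1hi, 213, 289 and 266 in Treg and 91.6, 99.8 and 93.4 in Tconv. PD1hi was lower than Treg for Slc4a7 (log2 -0.85 ± 0.13, SE; limma adjusted p = 0.000836), while for Slc4a8 the pair did not pass without a replicate block (log2 0.64 ± 0.22; adjusted p = 0.0765).

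**Figure D4:**
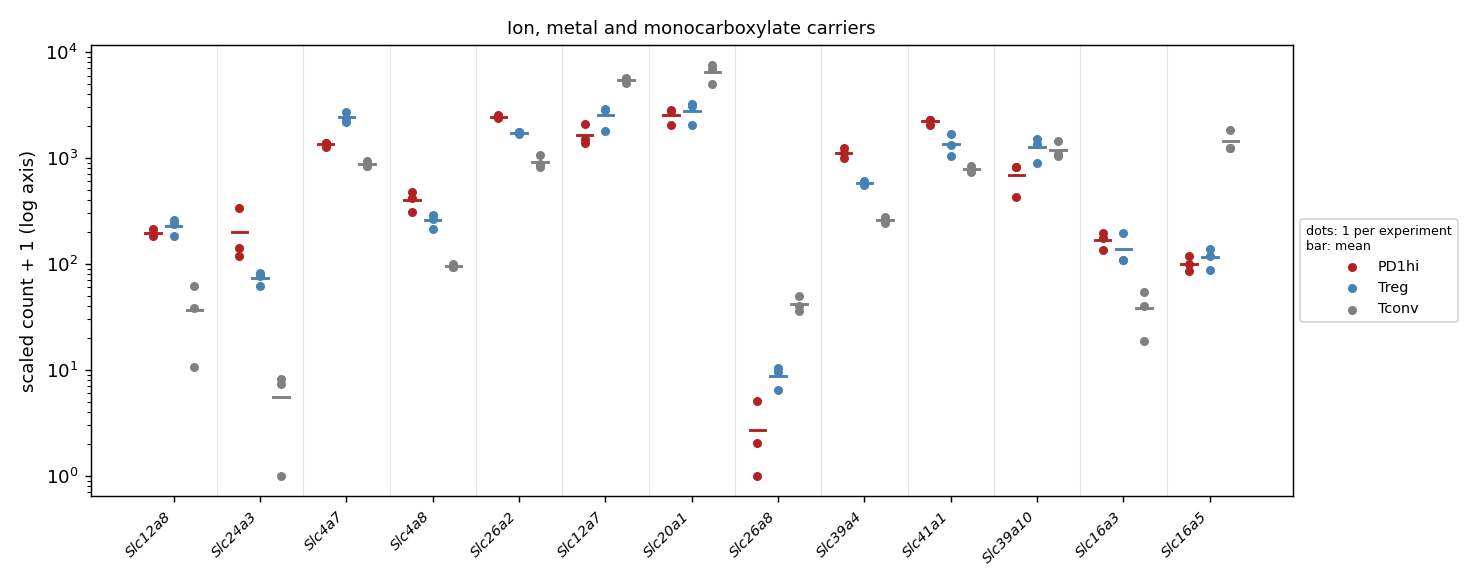
Scaled count + 1 (y axis, log scale) of 13 carriers of ions, metals and monocarboxylates. Each dot is 1 experiment, bars are means, and colours mark the population. Slc12a8, Slc24a3 and Slc16a3 lie lowest in Tconv, while Slc12a7, Slc20a1, Slc26a8 and Slc16a5 lie highest there.

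Slc12a7, which exports potassium with chloride, and Slc20a1, which imports phosphate, were highest in Tconv. Slc12a7 was at 1495, 2085 and 1387 in PD1hi, 1811, 2908 and 2863 in Treg and 5682, 5078 and 5593 in Tconv. Slc20a1 was at 2817, 2799 and 2067 in PD1hi, 2061, 3062 and 3224 in Treg and 4971, 6856 and 7514 in Tconv. No value of PD1hi or Treg reached the Tconv range (log2 -1.74 ± 0.20 and -1.32 ± 0.21 for PD1hi, -1.14 ± 0.20 and -1.22 ± 0.21 for Treg, SE; limma adjusted p at most 0.00225). The chloride importer Slc12a2 and the second phosphate importer Slc20a2 were higher in PD1hi than in Tconv, at 404, 183 and 387 beside 191, 124 and 154 for Slc12a2, with 1 PD1hi value inside the Tconv range, and at 149.6, 185 and 172 beside 104, 105 and 102 for Slc20a2. Slc26a8 was at 39.4, 35.1 and 49.2 in Tconv, 5.49, 9.40 and 8.60 in Treg and 1.02, 4.04 and 0 in PD1hi and did not overlap between populations (log2 -4.27 ± 0.66 for PD1hi and -2.27 ± 0.66 for Treg against Tconv, SE; limma adjusted p = 0.00046 and 0.0372). Slc24a1, another exchanger of sodium for calcium and potassium, was higher in Treg, at 32.95, 15.05 and 27.6, than in PD1hi, at 8.20, 1.01 and 6.52. Among ion carriers, the call ended without 1 value for Slc12a2 (0.118, Tconv 5) and Slc20a2 (0.107, PD1hi 5) in PD1hi against Tconv, for Slc24a1 (0.123, Treg 3) and Slc26a2 (0.0852, Treg 6) in PD1hi against Treg and for Slc26a10 (0.131, Tconv 5), Slc26a8 (0.16, Tconv 6), Slc9a7 (0.114, Tconv 6) and Slc9a9 (0.0626, Tconv 6) in Treg against Tconv (highest limma adjusted p and value left out).

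Of 24 metal carriers, 4 were higher and 2 lower in PD1hi than in Tconv, 3 higher and 2 lower in PD1hi than in Treg, and 4 higher and 0 lower in Treg than in Tconv. These counts were near the shares of all genes called (26.1%, 16.5% and 14.4%). Slc39a4, a zinc importer best known from the intestine, was at 989, 1120 and 1228 in PD1hi, 602, 550.1 and 585 in Treg and 276, 257 and 245 in Tconv. Slc41a1, a magnesium carrier, was at 2045, 2286 and 2304 in PD1hi, 1046, 1698 and 1316 in Treg and 783, 848 and 728 in Tconv. Both had the order PD1hi, Treg, Tconv with no overlap (log2 2.09 ± 0.15 and 1.49 ± 0.17 for PD1hi against Tconv, 0.94 ± 0.15 and 0.73 ± 0.17 against Treg, SE; limma adjusted p at most 0.0116). Slc39a10, a zinc importer described in lymphocytes, went the other way and was lowest in the PD1hi library of experiment 6, at 823, 817 and 423 in PD1hi, 903, 1346 and 1521 in Treg and 1086, 1031 and 1449 in Tconv. Its calls ended without 1 value (0.163 without Tconv of experiment 6 and 0.168 without Treg of experiment 6) and, against Tconv, with libraries scaled to equal totals (adjusted p = 0.0652). Slc41a3, of the same family as Slc41a1, was lower in PD1hi (148 ± 8.20) than in Tconv (283 ± 36.8) and Treg (288 ± 121, SD, n = 3).

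The iron importer Slc11a2 (DMT1) and the zinc exporter Slc30a1 passed no test, with means of 1303 ± 368, 1023 ± 86.8 and 1418 ± 144 and of 108 ± 28.8, 145 ± 57.1 and 125 ± 20.2 in PD1hi, Treg and Tconv (SD, n = 3). The zinc carrier Slc30a7, with the highest mean of the class, did not pass either. Slc11a1, the phagosomal metal carrier of macrophages, was below the minimum level and was at 0, 0 and 1.09 in PD1hi, 19.8, 4.70 and 5.69 in Treg and 3.20, 0 and 0 in Tconv. Slc40a1, the iron exporter ferroportin, spread over its mean within populations, at 70.7, 18.2 and 13.05 in PD1hi, 73.1, 13.2 and 19.2 in Treg and 88.4, 1.52 and 0.592 in Tconv, with experiment 3 highest in each. The summed level of 14 macrophage, monocyte and dendritic markers ran from 791 to 1321 in PD1hi, 449.5 to 1389 in Treg and 476 to 1860 in Tconv. In Treg, Csf1r was at 207 ± 32.4, H2-Aa at 150.0 ± 136 and Siglec1 at 0 (SD, n = 3). Cd68 was higher and Itgam lower in PD1hi than in both others (limma adjusted p at most 0.00835), and Vcam1 was higher than in Tconv (0.0403). Of the 8 tested, Lyz2, H2-Aa, H2-Ab1 and Vcam1 were highest in experiment 3 in each population. Csf1r, Cd68, Itgam and Itgax were not. The part of these markers in the Slc40a1 values was not tested. Further calls of metal carriers ended without 1 value, those of Slc39a1 (0.102 without Tconv of experiment 3) and Slc41a3 (0.0958 without Tconv of experiment 3) in PD1hi against Tconv, Slc39a11 (0.088 without PD1hi of experiment 5) and Slc41a3 (0.145 without Treg of experiment 5) in PD1hi against Treg, and Slc39a1 (0.11 without Treg of experiment 5) and Slc41a1 (0.0529 without Tconv of experiment 6) in Treg against Tconv.

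The 3 carriers of vesicles and lysosomes held the 1 member lowest in PD1hi by the rule above. Slc17a9, which loads ATP and other nucleotides into vesicles, was at 339, 525 and 403 in PD1hi, 1507, 1468 and 1733 in Treg and 1582, 1760 and 1862 in Tconv. The highest PD1hi value was below the lowest of the other populations, which overlapped (log2 -2.05 ± 0.17 against Tconv and -1.91 ± 0.17 against Treg, SE; limma adjusted p = 4.95e-06 and 1.08e-05). Slc17a5, the sialic acid carrier of lysosomes, and Slc18a2, the monoamine carrier of vesicles, passed no test.

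The mitochondrial Slc25 family was the largest class, with 36 members. In PD1hi, 5 were higher and 5 lower than in Tconv, and 6 were higher and 5 lower than in Treg, while Treg had 1 higher and 2 lower than Tconv. The share called was about that of all genes in PD1hi against Tconv (26.1%). It was larger in PD1hi against Treg (all genes: 16.5%) and smaller in Treg against Tconv (all genes: 14.4%). Slc25a42, which imports coenzyme A, was at 696, 910.4 and 1181 in PD1hi, 146, 202 and 220.3 in Treg and 208, 263 and 269.8 in Tconv. The PD1hi values lay above all others (log2 1.88 ± 0.24 against Tconv and 2.28 ± 0.24 against Treg, SE; limma adjusted p = 0.000104 and 3.57e-05). The aspartate-glutamate exchangers Slc25a12 and Slc25a13, which serve the malate-aspartate shuttle, moved apart. Slc25a13 was at 602, 392 and 225 in PD1hi, 172, 102 and 156 in Treg and 109.8, 118 and 102 in Tconv, and Slc25a12 at 2421, 2280 and 1770, 1981, 1798 and 2231 and 2986, 3110 and 3415 in the same order. Slc25a13 was higher and Slc25a12 lower in PD1hi than in Tconv (log2 1.77 ± 0.33 and -0.57 ± 0.15, SE; limma adjusted p = 0.00195 and 0.0145).

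Other paralogs with related substrates also had calls of opposite sign. The ATP-magnesium carriers Slc25a24 and Slc25a23 differed in this way. Slc25a24 was at 1540, 1920 and 1125 in PD1hi and 1032, 948 and 768 in Tconv, and Slc25a23 at 90.2, 53.5 and 150.0 and 305, 229 and 271 (log2 0.71 ± 0.20 and -1.56 ± 0.33, SE; limma adjusted p = 0.0214 and 0.00403). Slc25a39, which brings glutathione into mitochondria, was at 1234, 1473 and 1790 in PD1hi, 862, 1045 and 834 in Treg and 742, 1059 and 594 in Tconv. Its paralog Slc25a40 was at 503, 464 and 325 in PD1hi, 630.4, 777 and 831 in Treg and 667, 567 and 736 in Tconv. Slc25a39 was higher and Slc25a40 lower in PD1hi, against Tconv (log2 0.93 ± 0.22 and -0.62 ± 0.20) and against Treg (log2 0.70 ± 0.22 and -0.81 ± 0.20, SE; limma adjusted p at most 0.0444). Of the iron importers, mitoferrin 1 (Slc25a37) was lower in PD1hi than in both, at 326, 279.9 and 314 beside 521, 506 and 553 in Treg and 672, 597 and 718 in Tconv, and mitoferrin 2 (Slc25a28) passed no test. The exchangers of malate, Slc25a10 (dicarboxylate) and Slc25a11 (oxoglutarate), were higher in PD1hi than in Treg (log2 0.96 ± 0.21 and 0.63 ± 0.17, SE; limma adjusted p = 0.00699 and 0.026). Slc25a33, a pyrimidine nucleotide carrier, was highest in Treg, at 152, 177 and 161, beside 46.1, 57.6 and 54.4 in PD1hi and 53.3, 92.6 and 69.7 in Tconv.

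The ADP/ATP carriers Slc25a5 and Slc25a4, the phosphate carrier Slc25a3 and the citrate carrier Slc25a1 passed no test fitted without a replicate block. Slc25a5 had means of 15581 ± 1618, 15534 ± 1490 and 18537 ± 1358 in PD1hi, Treg and Tconv (SD, n = 3), the highest level of the class before any correction for length. In the Slc25 family, 1 value left out ended the call of Slc25a11 (0.117, Tconv 6), Slc25a12 (0.0695, Tconv 6), Slc25a24 (0.0994, Tconv 6) and Slc25a40 (0.149, Tconv 6) in PD1hi against Tconv, of Slc25a11 (0.113, Treg 6), Slc25a13 (0.051, Treg 5), Slc25a24 (0.0706, PD1hi 5), Slc25a35 (0.134, Treg 5), Slc25a39 (0.145, Treg 6) and Slc25a40 (0.0729, Treg 6) in PD1hi against Treg and of Slc25a12 (0.0536, Tconv 6), Slc25a33 (0.0579, Tconv 3) and Slc25a44 (0.169, Tconv 3) in Treg against Tconv (highest limma adjusted p and value left out). With libraries scaled to equal totals Slc25a40 no longer passed against Tconv (adjusted p = 0.0751).

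The opposed paralogs were counted over families, a count chosen after the values were seen. The 179 carriers belong to 43 families, of which 35 hold at least 2 members. In PD1hi against Tconv, 17 families had at least 2 members called, and 11 of these had calls in both directions: Slc5, Slc12, Slc16, Slc20, Slc22, Slc25, Slc26, Slc37, Slc38, Slc39 and Slc41. The other 6 (Slc2, Slc4, Slc6, Slc9, Slc43 and Slc45) had only calls above Tconv. Slc5, Slc20, Slc39 and Slc41 counted among the 11 only through calls that ended without 1 value: Slc5a3, Slc5a6, Slc20a2, Slc39a10 and Slc41a3. Among the 6, Slc2 and Slc45 likewise reached 2 calls only through Slc2a8 and Slc45a4, whose calls ended without 1 value. A family with many members can hold both directions more easily. The number of mixed families to be expected from the calls alone was not worked out, so the 11 are a description only. No call of a member changed direction under any alternative tried.

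Carriers of vitamins, organic ions and lipids (26 members) were 4 higher and 3 lower in PD1hi than in Tconv, 2 higher and 8 lower in PD1hi than in Treg, and 4 higher and 2 lower in Treg than in Tconv. The share called was about that of all genes in PD1hi against Tconv (26.1%) and larger in the other comparisons (all genes: 16.5% and 14.4%). The folate carriers had different patterns. Slc46a1, the proton-coupled folate carrier, was at 198, 149 and 188 in PD1hi, 38.4, 24.5 and 20.98 in Treg and 52.2, 29.4 and 37.03 in Tconv. Slc19a1, the reduced folate carrier, was at 742, 653 and 783 in PD1hi, 1152, 1065 and 1108 in Treg and 873, 866 and 882 in Tconv. PD1hi values lay above all others for Slc46a1 and below all others for Slc19a1, which passed only against Treg (log2 2.66 ± 0.34 and -0.61 ± 0.14 against Treg, SE; limma adjusted p = 0.000179 and 0.00755). Slc46a2, of the same family, was at means of 6.46 ± 4.75, 9.55 ± 3.95 and 20.2 ± 4.60 (SD, n = 3) and passed no test. Slc22a15, of the organic ion carriers, was at 338, 267 and 576 in PD1hi, 142, 152 and 106 in Treg and 19.2, 49.6 and 26.1 in Tconv, in that order without overlap (log2 3.63 ± 0.38 for PD1hi and 2.13 ± 0.38 for Treg against Tconv, SE; limma adjusted p = 2.4e-05 and 0.0023).

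The carnitine and ergothioneine carriers of the Slc22 family lie side by side. RefSeq (GRCm38.p6) lists the protein-coding genes Irf1, Slc22a5, Slc22a21, Slc22a4 and Pdlim4 in this order on chromosome 11. Slc22a5, which imports carnitine, was at 401, 387 and 234 in PD1hi, 1658, 1760 and 1566 in Treg and 364, 459 and 407 in Tconv. Slc22a21, a close relative of it, was at 18.4, 17.2 and 4.35 in PD1hi, 61.2, 68.7 and 50.3 in Treg and 23.4, 12.5 and 10.4 in Tconv. Both were highest in Treg with no overlap (log2 2.02 ± 0.21 and 1.96 ± 0.55 against Tconv, SE; limma adjusted p = 4.47e-05 and 0.0327). Slc22a4, known for carrying ergothioneine, was at 1.02, 1.01 and 0 in PD1hi, 4.04, 0 and 1.48 in Treg and 36.2, 29.5 and 27.7 in Tconv, and the 3 PD1hi libraries held 2 reads of it. Tconv was thus 43.6-fold above PD1hi (95% exact counting interval 11.9 to 363) and differed from Treg (log2 -3.78 ± 0.77 for Treg, SE; limma adjusted p = 0.00541). Pdlim4, the next gene, was likewise high in Tconv alone, at 62.5, 13.1 and 1.09 in PD1hi, 4.55, 1.88 and 11.3 in Treg and 800.3, 987 and 666 in Tconv, while Irf1 was lowest in PD1hi (5742 ± 226, beside 10118 ± 709.6 in Treg and 8824 ± 392 in Tconv, SD, n = 3). Pdlim4 and Irf1 are no solute carriers and were named after their values were seen.

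Stretches of the promoters of Slc22a5 and Slc22a4, which are high in different populations, read as follows in RefSeq (GRCm38.p6), with an E-box CACGTG in capitals. That of Slc22a5 ends at the start site and that of Slc22a4 ends further upstream, so they do not cover the same distances from it. The pair was not picked by a rule.
Slc22a5 (chr11:53891704-53891853, minus strand): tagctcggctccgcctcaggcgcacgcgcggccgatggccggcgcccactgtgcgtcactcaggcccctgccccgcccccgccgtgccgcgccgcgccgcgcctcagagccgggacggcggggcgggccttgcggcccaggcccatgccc
Slc22a4 (chr11:54028205-54028354, minus strand): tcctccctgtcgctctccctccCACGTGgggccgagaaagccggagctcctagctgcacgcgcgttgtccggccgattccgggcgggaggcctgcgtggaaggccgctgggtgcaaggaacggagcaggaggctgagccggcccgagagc
The E-box, a sequence bound by MYC and other factors and identical on both strands, was found at base -228 from the start site of Slc22a4 and in neither orientation in the 300 bases of Slc22a5. It was present in 26 of 176 member promoters (14.8%) and in 7.15% of all 32851 promoters, with some genes counted more than once. No test was made of that share, and the match describes letters only.

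**Figure D5:**
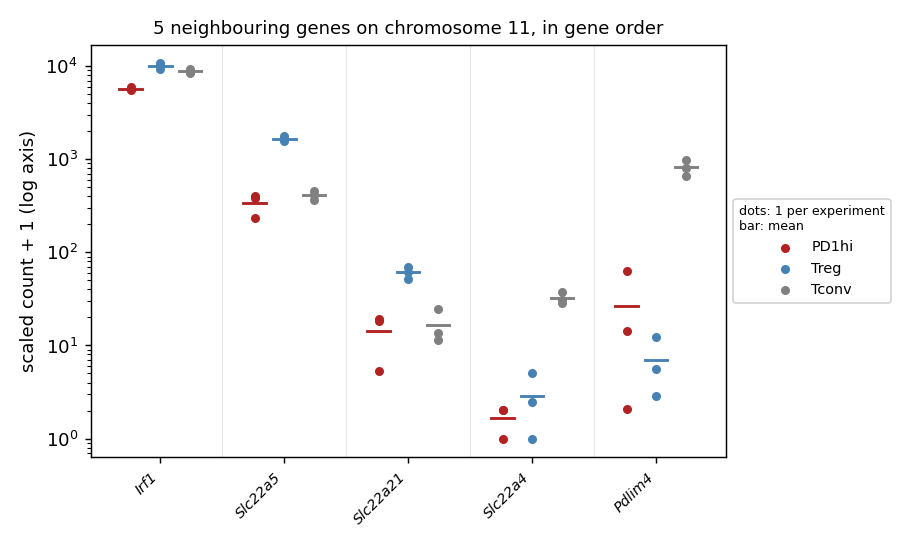
Scaled count + 1 (y axis, log scale) of 3 neighbouring Slc22 genes and the genes on either side, in gene order. Each dot is 1 experiment, bars are means, and colours mark the population. Treg dots are on top for Slc22a5 and Slc22a21, and Tconv dots for Slc22a4 and Pdlim4.

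Slc22a2, an organic cation carrier best known from the kidney, was found in Treg, at 81.6, 47.96 and 57.7, and was low elsewhere, at 2.05, 1.01 and 4.35 in PD1hi and 6.39, 7.46 and 4.01 in Tconv (log2 -4.27 ± 0.56 for PD1hi against Treg, SE; limma adjusted p = 0.000203). Slc27a6, of the fatty acid transport proteins, was at 148, 182 and 122 in Tconv, 21.5, 40.4 and 38.1 in PD1hi and 7.32, 0 and 26.2 in Treg, with all Tconv values above the rest. It passed for Treg against Tconv (log2 -4.62 ± 0.90, SE; limma adjusted p = 0.00408) and not for PD1hi (adjusted p = 0.101), and the Treg libraries of experiments 3 and 6 were over 2-fold apart within the pair. Slc44a2, a choline carrier family protein with the highest mean of the class, was at 6803, 8207 and 5329 in PD1hi, 9390, 10616 and 12146 in Treg and 11549, 12418 and 14504 in Tconv and was lower in PD1hi than in both (log2 -0.94 ± 0.17 and -0.67 ± 0.17, SE; limma adjusted p = 0.00149 and 0.017). Vitamin carriers lower in PD1hi than in Treg were Slc23a2 for ascorbate, Slc52a3 for riboflavin and Slc5a6 for biotin and pantothenate (log2 -0.73, -1.08 and -0.70). Within this class, a call ended without 1 value for Slc27a1 (0.197, Tconv 6), Slc52a2 (0.18, Tconv 6) and Slc5a6 (0.15, Tconv 6) in PD1hi against Tconv, for Slc22a15 (0.0751, Treg 6), Slc23a2 (0.0627, Treg 6), Slc44a2 (0.0796, Treg 6), Slc52a3 (0.0909, Treg 5) and Slc5a6 (0.0686, Treg 5) in PD1hi against Treg and for Slc22a21 (0.128, Tconv 6) in Treg against Tconv (highest limma adjusted p and value left out). The call of Slc22a21 in Treg against Tconv also ended without the second Treg library of experiment 3 (adjusted p = 0.0564).

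Of 8 carriers of nucleosides and nucleotide sugars, Slc28a2, which imports purine nucleosides with sodium, was lower in PD1hi, at 3869, 3909 and 2683, than in Treg, at 5311, 6383 and 7108, and Tconv, at 5315, 4915 and 6326 (log2 -0.86 ± 0.18 and -0.68 ± 0.18, SE; limma adjusted p = 0.00488 and 0.0133). Slc29a2, an equilibrative nucleoside carrier, was lower in PD1hi than in Tconv (log2 -1.30 ± 0.33, SE). Slc35a3, which brings UDP-N-acetylglucosamine into the Golgi, was higher in PD1hi and in Treg than in Tconv (log2 0.76 ± 0.19 and 0.84 ± 0.19, SE). A value left out ended the call of Slc28a2 (0.0687, Tconv 6), Slc29a2 (0.0574, Tconv 6) and Slc35a3 (0.0608, Tconv 3) in PD1hi against Tconv and of Slc35a3 (0.0619, Tconv 3) and Slc35a4 (0.103, Treg 5) in Treg against Tconv (highest limma adjusted p and value left out). Slc35a3 and Slc35a4 also lost the latter call without the second Treg library of experiment 3 (adjusted p = 0.141 and 0.108).

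Slc14a1, the urea carrier of red cells and kidney, was outside these classes and separated all 3 populations. It was at 2504, 2763 and 2820 in Treg, 1789, 1258 and 1357 in Tconv and 811, 730.5 and 659.9 in PD1hi. The log2 fold change was -1.88 ± 0.16 for PD1hi against Treg, -0.99 ± 0.16 for PD1hi against Tconv and 0.89 ± 0.16 for Treg against Tconv (SE; limma adjusted p = 6.51e-06, 0.000624 and 0.00229). The 10 erythroid and platelet markers in the table summed to 71.7 to 84.0 in PD1hi, 72.2 to 117 in Treg and 40.8 to 55.4 in Tconv, and their part in the Slc14a1 values was not tested. None of the 3 of them that could be tested passed. The 4 symbols that encode no carrier did not pass the test in any comparison fitted without a replicate block. Slc9a3r1, a scaffold protein that binds carriers, had the highest mean of these (3480 ± 549.7, 4918 ± 709.9 and 3978 ± 962 in PD1hi, Treg and Tconv, SD, n = 3).

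Partners and regulators of carriers, 31 genes of which 30 were tested, were 3 higher and 4 lower in PD1hi than in Tconv, 4 higher and 4 lower in PD1hi than in Treg, and 2 higher and 1 lower in Treg than in Tconv. Of all genes tested, 26.1%, 16.5% and 14.4% were called in these comparisons. The share of partners called was thus below that of all genes in both comparisons with Tconv and above it in PD1hi against Treg. Emb, a chaperone of monocarboxylate carriers, was at 7172, 6099 and 7144 in Tconv, 3335, 3180 and 2883 in PD1hi and 2438, 3132 and 3027 in Treg (log2 -1.12 ± 0.14 and -1.25 ± 0.14 against Tconv, SE; limma adjusted p = 8.41e-05 and 7.2e-05). Its counterpart Bsg passed no test. Stk39, a kinase that regulates cation-chloride carriers such as Slc12a2 and Slc12a7, was at 1068, 803 and 1187 in PD1hi, 288, 235 and 317 in Treg and 260.0, 276 and 264 in Tconv, with PD1hi above all others (log2 1.91 ± 0.19 against Tconv, SE; limma adjusted p = 1.82e-05). The calcium uniporter of mitochondria, Mcu (Ccdc109a in the table), was higher in PD1hi (1188 ± 182) than in Treg (667 ± 64.6) and Tconv (585 ± 80.5, SD, n = 3).

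Among genes of amino acid sensing, Sesn1, a leucine-responsive inhibitor of mTORC1, was at 643, 821 and 640.3 in PD1hi, 5081, 5323 and 5840 in Treg and 3160, 3032 and 3640 in Tconv, with no overlap between any populations (log2 -2.95 ± 0.14 for PD1hi against Treg and -2.23 ± 0.14 against Tconv, SE; limma adjusted p = 8.21e-08 and 6.85e-07). Myc, which is known to drive carrier expression in activated T cells, was at 922, 873 and 640.3 in PD1hi, 3249, 2412 and 3111 in Treg and 3307, 2852 and 3353 in Tconv, and so lowest in PD1hi. Rragd, a Rag GTPase of the lysosome, was highest in Treg, at 300.3, 246 and 185, beside 38.9, 9.09 and 15.2 in PD1hi and 42.6, 42.9 and 40.6 in Tconv. Castor1 (Gatsl3 in the table), an arginine sensor, was lower in PD1hi than in Tconv (log2 -0.52 ± 0.16, SE; limma adjusted p = 0.0315), a call that ended without 1 value (0.11 without Tconv of experiment 5) and with equal totals (0.113). In iron handling, Hmox1, which degrades heme, was at 582, 455 and 479 in PD1hi, 89.2, 109 and 98.7 in Treg and 82.1, 82.96 and 67.2 in Tconv. Tfrc, the transferrin receptor, was lower and the ferrireductase Steap3 higher in PD1hi than in Treg (log2 -0.76 ± 0.21 and 2.98 ± 0.88, SE; limma adjusted p = 0.0266 and 0.0372), and both calls ended when 1 value was left out (0.0982 without Treg of experiment 6 and 0.0965 without Treg of experiment 5).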

How the data were processed

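RNA of 13 libraries was extracted with Trizol, depleted of ribosomal RNA and sequenced by an Ion Torrent protocol, per the labels' protocols. The submitters' processing notes name Picard, HTSeq 0.5.4, limma, hg19, GRCh37 and mm9. Which build served the mouse reads, the aligner and the strand setting were not given in the sources used here. A single signal table (18649 genes) was deposited, holding counts the authors scaled per library, per the labels. After 1 was subtracted, every deposited signal value equalled whole reads multiplied by its library's constant (within 0.001 reads). The difference is the scaled count, and the constants gave the depth. Genes with a mean of at least 10 (14177) were tested with limma 3.58.1 in R 4.3.3 on log2(scaled count + 1), a scale that understates changes of low genes, with a variance trend, 3 values per population, population as the only term and a 2-sided Benjamini-Hochberg adjusted p under 0.05. The procedure was tested on simulated counts drawn independently for each value, without an effect of experiment or a library that stands apart. That test does not cover such features of these data. Alternatives were 18, including leaving out each of the 9 values, other scaling, pseudocounts of 0.5 and 5, other filters and a replicate block. Deviations from the population means of same-numbered Treg and Tconv values correlated at 0.243, 0.218 and 0.298, so the experiment number was taken as pairing these, on the evidence of the values and not of the labels. With PD1hi, which the titles number in the same way, the values did not meet this standard (every correlation above 0.1), so pairing stayed undecided. Levels are not corrected for gene length, so they were compared between genes only to pick the highest member of each class. Where a population held 1 to 3 reads of a gene, the ratio of reads is given with an exact 95% interval. PCR reads are not independent molecules.

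Named were the 6 members with the largest rise and fall per comparison, those with PD1hi on top or bottom against both, the highest member of each class and a set of carriers well described in T cells. Other genes were named after their values were seen. The members, classes, partner and marker lists were chosen with earlier results of these data known. Of the fixed lists, 8 symbols were matched through older names. A few genes that the rule or lists name are not reported here.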

Additional observations from a re-analysis of the deposited data

How the results depend on the processing

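Over 18 alternatives, no member call changed direction: 95 of the 152 calls of members passed in every alternative that gave a value, and each of the 57 others was lost in at least 1 setting that leaves out 1 of the 9 values. With the second Treg library of experiment 3 left out, 6 calls were lost. Scaling libraries to equal totals of reads moved the median log2 fold change of all genes in PD1hi against Tconv from -0.0004 to 0.142, ended 10 member calls, and changed the split of all called genes from 2012 higher and 1688 lower (54.4% higher) to 2450 and 1298 (65.4%), and of members from 41 and 22 to 46 and 17. Leaving out 1 value gave 14 to 26 members lower in PD1hi than in Treg (23 with all values), 9 to 21 lower in Treg than in Tconv (16 with all values) and 1 to 2 lower in PD1hi than in both (1 with all values). The last count was also 2 with 13 libraries and their estimated correlation (0.366). With experiment as a replicate block, 46 members were higher and 25 lower in PD1hi than in Tconv, 26 and 25 in PD1hi than in Treg, and 31 and 18 in Treg than in Tconv, and no call of a member was lost in the last comparison. In the PD1hi comparisons, same-numbered values correlated at 0.197, 0.125 and 0.0187 (with Tconv) and 0.092, 0.169 and -0.07 (with Treg). The titles give them the same experiment number, and these correlations do not settle whether they are paired. There, the block lost Slc25a40 (limma adjusted p = 0.057) and Slc39a10 (0.0688) against Tconv and Slc39a10 (0.0727) against Treg. It gained 10 member calls against Tconv, among them Slc7a5 (0.0454), Slc1a5 (0.00612) and Slc25a1 (0.0235), and 6 against Treg, among them Slc25a4 (0.0394), Slc4a8 (0.0431), Slc15a2 (0.0245) and Slc9a3r1 (0.0188). In neither of these was every value closest to its own number. Depth limits members near the minimum level, where 1 read was worth about 1 scaled count.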
